A study of Rattus norvegicus with 16 samples.

Results

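MiR-143 and miR-145 are the 2 microRNAs (miRNAs) of one cluster that is best known from smooth muscle. They were taken from the array data by their annotated names, rno-miR-143 and rno-miR-145, and are 2 of the 350 rat miRNAs on the array. Samples of male Sprague-Dawley rats in 4 groups were measured. The kidney CI-AKI and plasma CI-AKI groups came from rats given the iodinated contrast medium Omnipaque (iohexol, 350 mg iodine per ml) at 10 ml/kg by tail vein, a model of contrast-induced acute kidney injury (CI-AKI). The kidney control and plasma control groups came from rats given the same volume of saline. Every rat, controls included, had first been deprived of water for 3 days and injected with the diuretic furosemide (10 mg/kg), so that contrast was the only labelled difference between the groups of a tissue. Samples were taken 8 h after the injection. Each of the 16 one-colour Agilent arrays read a pool of RNA from 3 rats, with 4 pools a group, so a value is a mean over animals and says nothing of the spread between single rats.

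An miRNA is cut from a hairpin of its primary transcript and, loaded into an Argonaute protein, lowers the output of mRNAs that pair with its seed, the bases near its 5′ end. MiR-143 and miR-145 lie next to each other and are made from one primary transcript, whose promoter in mouse answers to serum response factor and myocardin, the regulators of the contractile genes of smooth muscle. In mouse the pair is most abundant in the smooth muscle of vessels and hollow organs. Known targets are the growth-linked factors KLF4 and KLF5 for miR-145 and ELK1 for miR-143. In a whole kidney such RNA can come from arteries, arterioles and other contractile stroma, and in plasma it is RNA outside cells, from any organ.

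The sequences are shown because the partners, though cut from one transcript, pair with different target sites. They are RefSeq entries on GRCr8, 5′ to 3′, with the seed (bases 2 to 8) in capitals.
rno-miR-143-3p, chr18:57371373-57371394, minus strand: uGAGAUGAagcacuguagcuca
rno-miR-145-5p, chr18:57370033-57370055, minus strand: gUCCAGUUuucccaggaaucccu
The hairpins are shown to place the mature strand, here in capitals, within its precursor.
Mir143, chr18:57371349-57371453, minus strand: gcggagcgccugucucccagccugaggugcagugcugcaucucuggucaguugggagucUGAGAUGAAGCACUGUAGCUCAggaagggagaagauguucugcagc
Mir145, chr18:57369983-57370070, minus strand: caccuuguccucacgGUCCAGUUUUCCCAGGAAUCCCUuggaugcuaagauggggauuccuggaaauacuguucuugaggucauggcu
The hairpins lie 1278 bases apart. MiR-143 is the strand from the 3′ side of its hairpin and miR-145 the strand from the 5′ side. The array names carry no arm, and these arms, the abundant ones, are given as background. The seeds have the same base at 1 of their 7 positions, and of the 724 mature rat entries in the RefSeq table each seed occurs in 1, its own. The pair therefore shares a transcript but no seed.

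Each member was read by 2 probes with 10 spots each. The spots of a probe mostly agreed closely, with a median coefficient of variation of 3.52% for miR-143 and of 7.12% for miR-145 where it was detected, and 0 spots were saturated. The dimmer miR-145 probe was weaker on kidney pools 3. It had 4 of 10 spots well above background in CI-AKI (coefficient of variation 23.8%) and 6 of 10 in control (18.5%). The other miR-145 probe had all 10 spots well above background on both arrays. MiR-143 was detected on all 16 arrays. MiR-145 was detected on all 8 kidney arrays and on 6 of the 8 plasma arrays, the exceptions being pool 4 of both plasma groups. Signals are given scaled within a tissue, as the processed signal over the 75th percentile of its own array, taken from the miRNAs that all arrays of that tissue detected. They compare one miRNA between pools, never one miRNA with the other.

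Both plasma arrays of pool 4 stood apart from the rest. Their summed signal over detected miRNAs was 7068 in CI-AKI and 3484 in control, against 24171 to 123239 on the other plasma arrays, and a synthetic RNA added before labelling read 164 and 51.8 there, against 928 to 3155. Plasma values that rest on them are therefore also given without them. All plasma arrays lay on slide 1 and all kidney arrays on slide 2, so slide and tissue cannot be told apart. The letters in the sample descriptions (8, each used once per tissue) stand beside opposite treatments in plasma and kidney for 6 letters and beside the same treatment for 2, and what they mean is not stated. Groups follow the titles. Most tissue markers went with the labels. Of the 5 epithelial miRNAs of the miR-200 family, 4 were called higher in kidney than in plasma in each treatment, with miR-200b higher by 5.03 on the log2 scale in CI-AKI and by 5.64 in control, while miR-141 differed by -0.01 in CI-AKI and 0.17 in control and was not called. Of 4 kidney tubule miRNAs, miR-192 and miR-194 were called higher in kidney in each treatment, miR-204 was not called, and miR-215 went against the label, detected on all 8 plasma arrays and on 0 of the 8 kidney arrays. MiR-122 of liver was likewise detected on all 8 plasma arrays and on 0 of the 8 kidney arrays.

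The first question was whether contrast changed the pair in the kidney. For neither partner did the difference pass the test, and both were smaller than the spread between pools. MiR-143 had scaled signals of 687, 636, 674 and 869 in the CI-AKI kidney pools, against 894, 673, 681 and 690 in control kidney pools. Most pools lay close together near the lower end, with 1 high pool in each group, and the groups overlapped. Its mean was 717 ± 104 in CI-AKI and 734 ± 106 in control kidneys (SD, n = 4 pools each). The log2 difference, CI-AKI minus control, was -0.03 (SE 0.12; limma, adjusted p = 0.957 over 176 miRNAs).

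MiR-145 had scaled signals of 38.7, 30.3, 23.5 and 35.5 in the CI-AKI kidney pools, against 35.9, 31.2, 24.8 and 26.7 in control kidney pools. These ranges overlapped almost wholly. Its mean was 32.0 ± 6.62 in CI-AKI and 29.6 ± 4.96 in control kidneys (SD, n = 4 pools each), a log2 difference of 0.10 (SE 0.17; limma, adjusted p = 0.917). Neither of the 2 members was called, in a comparison that called 1.7% of the miRNAs tested, 3 of 176, and in which 5.11% had groups that did not overlap. With the other tissue's treatment for each letter, the miR-143 difference in kidney was 0.20 (limma, adjusted p = 0.778). It was 0.06 without control pool 1 and 0.02 without CI-AKI pool 2, so its sign is not settled.

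In plasma neither partner's difference passed the test either, and the pools spread more widely. MiR-143 had scaled signals of 385, 677, 313 and 168 in the CI-AKI plasma pools, against 344, 830, 419 and 326 in control plasma pools. Pool 2 was the highest in both groups, and the lowest value was that of the weak CI-AKI pool 4. The mean was 386 ± 214 in CI-AKI and 480 ± 237 in control plasma (SD, n = 4 pools each). The log2 difference was -0.38 (SE 0.45; limma, adjusted p = 0.941 over 96 miRNAs), and -0.18 (SE 0.41; limma, adjusted p = 0.909) without pool 4 of both groups. It was -0.03 without CI-AKI pool 4 and -0.70 without CI-AKI pool 2.

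MiR-145 had scaled signals of 156, 123 and 51.7 in CI-AKI plasma pools 1 to 3, against 22.0, 82.6 and 42.6 in control plasma pools 1 to 3. On the pool 4 arrays it was not detected, and its readings there, 10.1 in CI-AKI and 27.0 in control, lie beside lowest detected signals of 18.4 and 20.9. Within pool numbers, CI-AKI was higher than control in pools 1, 2 and 3, yet the groups overlapped, because control pool 2 lay above CI-AKI pool 3. The log2 difference over all pools was 0.57 with an SE of 0.94. It was 0.08 without CI-AKI pool 1 and 1.39 without CI-AKI pool 4, and miR-145 was outside the miRNAs tested, which had to be detected on all 4 pools of a group. Without pool 4 of both groups it was tested, with a log2 difference of 1.23 (SE 0.48), equal to a 2.34-fold higher signal. Its limma p was 0.0211 before adjustment and 0.470 after, so it did not pass. The plasma comparison called 0% of its 96 miRNAs in limma, with 5 at an unadjusted p under 0.05, and it called 0 in every alternative run. Of the 96, 5.21% had groups that did not overlap over all pools.

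In slide row 1, which held plasma pools 1 and 2, the log2 difference of miR-145 was 1.70. In row 2, which held pools 3 and 4, it was -0.57, a value carried by the pool 4 readings, which were not detected. In pool 3, the detected pair of that row, log2 signals were 5.69 in CI-AKI and 5.41 in control. Both miR-145 probes gave the same direction, with log2 differences of 1.31 and 1.19 without pool 4 of both groups. If plasma pools are given the treatment that their letter has in kidney, the miR-145 difference over all pools turns to -1.27.

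**Figure D1:**
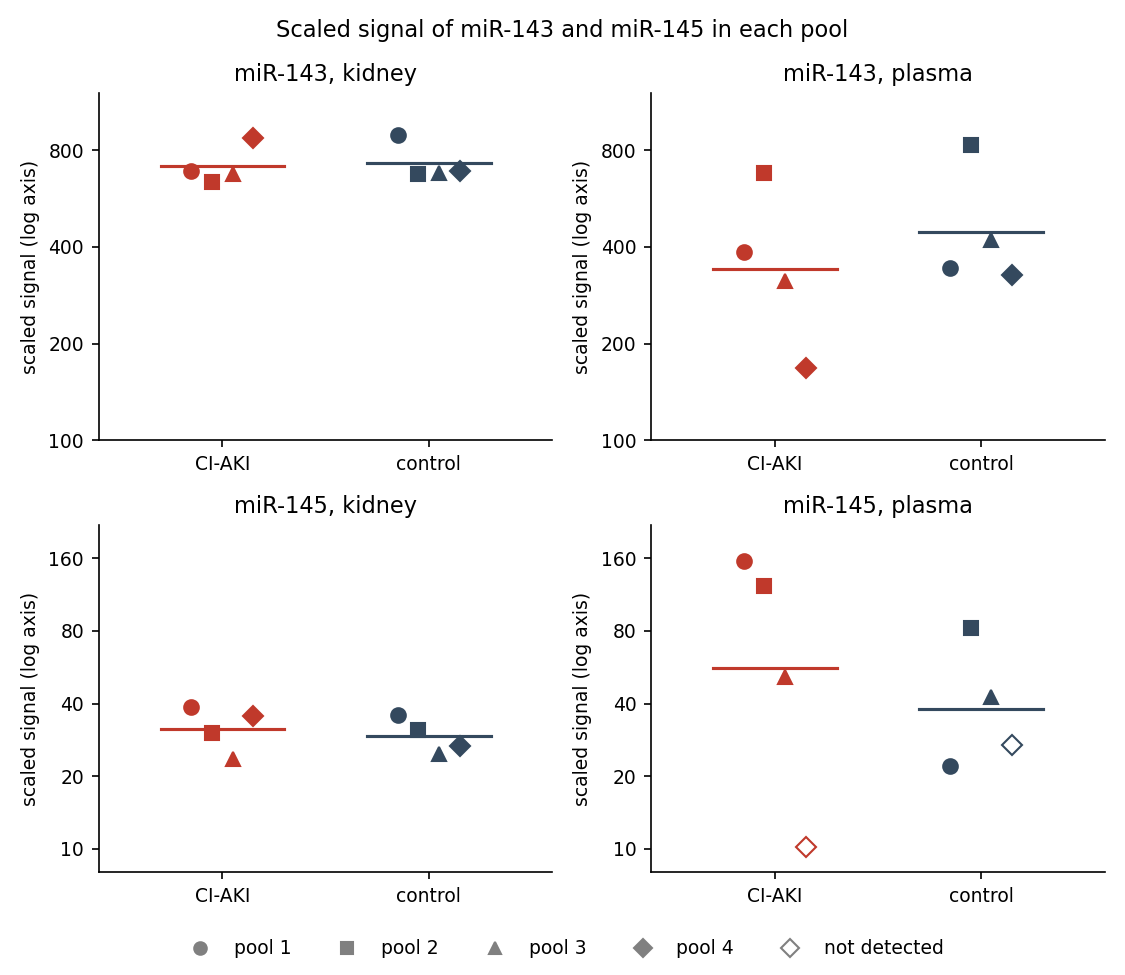
Scaled signal on a log axis of miR-143 (top) and miR-145 (bottom) in each pool of kidney (left) and plasma (right), CI-AKI left of control; marker shapes are pool numbers, bars are geometric means and open markers are pools in which the miRNA was not detected. Kidney pools sit close together in both groups, while miR-145 in plasma spans 10.1 to 156 in CI-AKI pools and 22.0 to 82.6 in control pools.

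The partners were then compared within each array, where scaling cancels: the signal of miR-145 was expressed as a percentage of the signal of miR-143, and only its change between groups was read, since different probes have no common scale. In kidney this ratio spread less than in plasma, though more than the ratios of the other pairs set beside it below. It was 5.62%, 4.76%, 3.49% and 4.08% in CI-AKI kidney pools, against 4.02%, 4.63%, 3.64% and 3.87% in control kidney pools. The control values all lay within the CI-AKI range. The log2 ratio differed by 0.14 between CI-AKI and control kidneys (exact permutation test, two-sided, p = 0.429, n = 4 pools each).

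In plasma the ratio was 40.5%, 18.2% and 16.5% in CI-AKI pools 1 to 3, against 6.40%, 9.94% and 10.2% in control pools 1 to 3. Each of these CI-AKI pools lay above each of these control pools. In pool 4, where miR-145 was not detected, the readings were 6.02% in CI-AKI and 8.28% in control. Over all 4 pools the log2 ratio differed by 0.94 (exact permutation test, two-sided, p = 0.171, adjusted p = 0.229 over 4 comparisons). Over pools 1 to 3 it differed by 1.41, or 2.66-fold, with an exact permutation p = 0.1, the smallest that 3 against 3 pools allow. Without CI-AKI pool 4 alone the difference was 1.43 (exact permutation p = 0.0286, the smallest that 3 against 4 pools allow, adjusted p = 0.0381). That setting kept control pool 4, where miR-145 was not detected either. Without CI-AKI pool 1 the difference was 0.51 (exact permutation p = 0.343), so the result rests on which pools are counted. CI-AKI pool 1 had the highest ratio and also the lowest summed signal of pools 1 to 3 in either plasma group, 24171 with 156 miRNAs detected, and the part of this in its ratio was not tested. With the letters' kidney treatments the plasma difference turned to -1.17 (exact permutation p = 0.0857).

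For background, 155 miRNAs were detected on every plasma array of pools 1 to 3 in both groups, and 10.3% of these had every CI-AKI pool above every control pool in scaled signal, 16.1% in either direction. MiR-145 itself did not separate in this way. A signal ratio was also computed for 14 other pairs from one cluster or hairpin that were detected on these arrays. The change in plasma, CI-AKI minus control over pools 1 to 3, was 1.41 for miR-143 and miR-145 and at most 1.03 in size for the others, with a median size of 0.41. The pair nearest in size was miR-30b-5p and miR-30d at 1.03, followed by miR-221 and miR-222 at 0.71. In kidney the change of 0.14 was number 3 in size among 19 pairs, whose largest was 0.17. These ranks describe the pairs chosen and carry no test. The shares of 10.3% and 16.1% are of single signals. A share of pairs whose ratios did not overlap between the plasma groups is not given here, so the separation of this ratio has no background beside it.

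**Figure D2:**
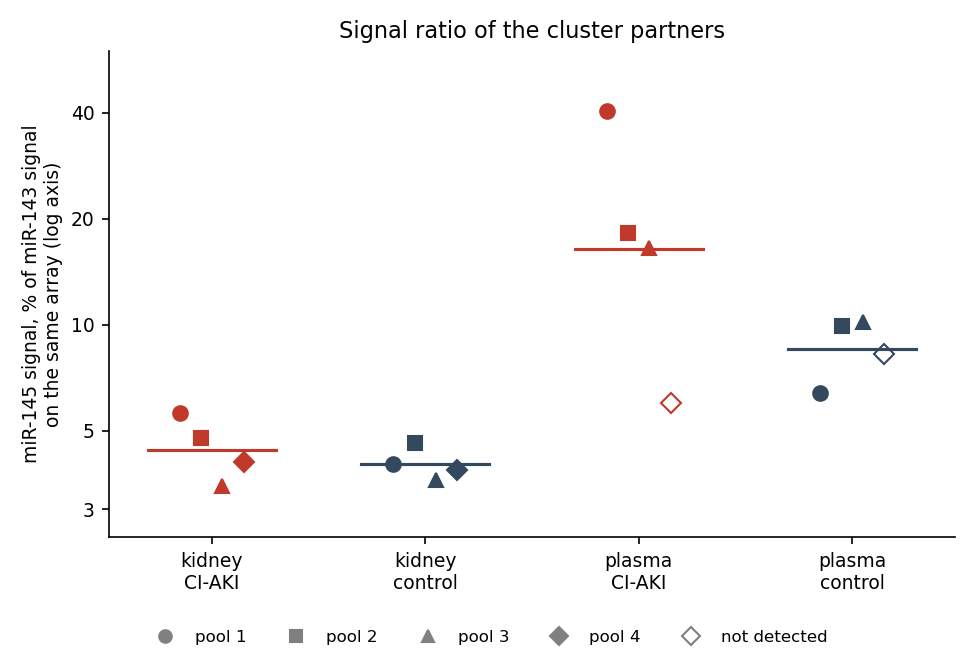
Signal of miR-145 as a percentage of the miR-143 signal on the same array (log axis) in each pool of the 4 groups; bars are geometric means and open markers are pools in which miR-145 was not detected. Kidney pools lie between 3.49% and 5.62%, and CI-AKI plasma pools 1 to 3 between 16.5% and 40.5%, above the control plasma pools.

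**Figure D3:**
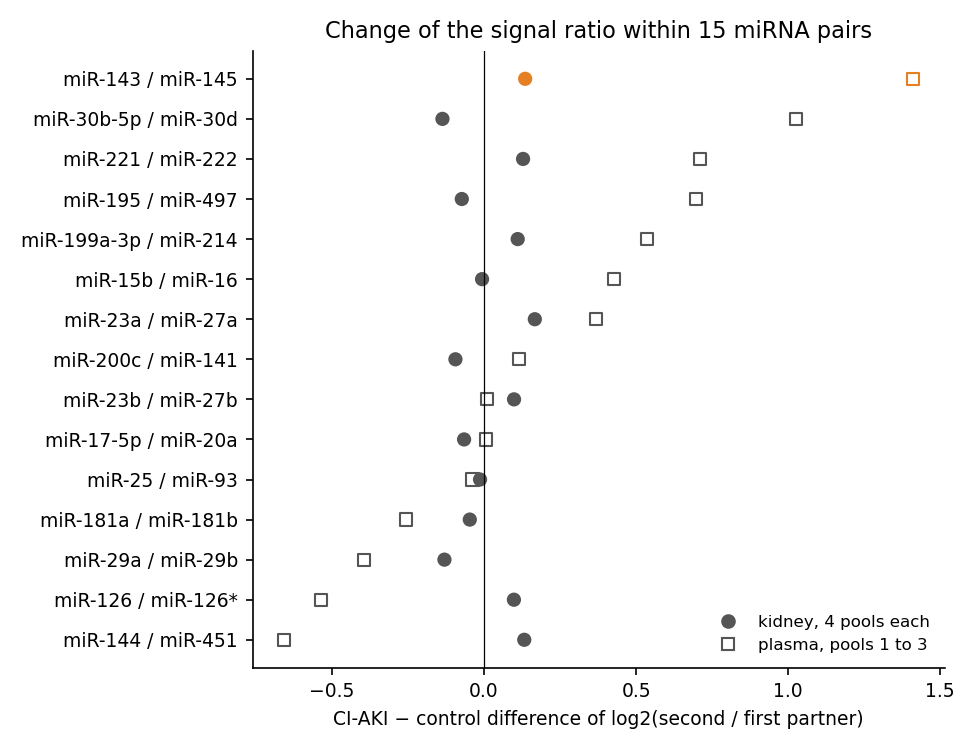
Difference between CI-AKI and control in the log2 signal ratio of 15 miRNA pairs, second partner over first, in kidney (filled circles, 4 pools each) and plasma (open squares, pools 1 to 3), with miR-143 and miR-145 in orange. Kidney differences lie within 0.17 of 0, and the plasma difference of 1.41 for miR-143 and miR-145 is the furthest from 0.

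Whether contrast acted differently on the pair in the 2 tissues was tested directly as the contrast difference in kidney minus that in plasma. For miR-143 it was 0.30 (SE 0.51; limma, adjusted p = 0.929 over 87 miRNAs), in a comparison that called 1.15% of the miRNAs tested. For miR-145 it was -0.51 (SE 0.99), outside the miRNAs tested. Without pool 4 of both plasma groups it was -1.19 (SE 0.55), with a limma p of 0.0479 before adjustment and 0.404 after. No difference between the tissues in the effect of contrast was thus shown for either partner.

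The tissues themselves differed more than the treatments. All 16 arrays were scaled together here, over the 65 miRNAs detected on each of them. MiR-143 averaged 344 ± 42.1 in kidney and 826 ± 497 in plasma of CI-AKI rats (SD, n = 4 pools each). In control rats it averaged 354 ± 46.3 in kidney and 981 ± 490 in plasma. MiR-145 averaged 15.3 ± 2.74 in kidney and 181 ± 142 in plasma of CI-AKI rats, and 14.3 ± 2.22 in kidney and 89.0 ± 56.5 in plasma of control rats. The spread between plasma pools was many times that between kidney pools for both.

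The log2 difference of miR-143, kidney minus plasma, was -1.07 in CI-AKI (SE 0.37; limma, adjusted p = 0.0155) and -1.37 in control (SE 0.37; limma, adjusted p = 0.00344). For miR-145 it was -2.97 in CI-AKI (SE 0.66; limma, adjusted p = 0.000737) and -2.46 in control (SE 0.66; limma, adjusted p = 0.00329). Both members were thus called lower in kidney than in plasma, where most miRNAs differed: of 181 miRNAs tested in CI-AKI 74.6% were called and 45.3% were called lower, and of 178 tested in control 77.5% were called and 44.9% were called lower. In control the kidney and plasma pools of miR-143 did not overlap, as was so for 78.7% of the miRNAs tested, and neither did the kidney and the detected plasma pools of miR-145. In CI-AKI 71.8% of the miRNAs tested did not overlap, and the pools of miR-143 did, through plasma pool 4. The CI-AKI pools of miR-145 cannot be ordered in full, since plasma pool 4 holds only a reading of 21.0 that was not detected, under the array's lowest detected signal of 38.1, while the kidney pools reached 18.3. Its detected plasma pools read 106 to 322. In control, too, the plasma pool 4 reading of miR-145, 55.7, was not detected. Without CI-AKI plasma pool 2 the miR-143 difference in CI-AKI was -0.72 and no longer passed (limma, adjusted p = 0.0539). Without the weak plasma pools 4, the differences were -1.42 in CI-AKI and -1.51 in control for miR-143, and -3.80 in CI-AKI and -2.62 in control for miR-145. The fit used a common spread for both tissues, though in CI-AKI the log2 SD of miR-143 was 0.87 in plasma and 0.17 in kidney. It also took the tissues as independent, though both came from the same rats. The adjusted p-values of these limma calls are therefore approximate and can be too small. 

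The direction depends on how arrays of different tissues are brought to one scale. The median of all miRNAs tested was -0.59 in CI-AKI and -0.40 in control as scaled here, and over 9 ways of scaling and summarising, in both treatments, it ran from -0.59 to 1.48. With no scaling, miR-143 was higher in kidney, by 1.10 in CI-AKI and 0.66 in control (limma, adjusted p = 0.490 and 0.710), while the median miRNA was higher by 1.48 and 1.36. Scaled to the labelling spike-in, the miR-143 difference in CI-AKI was -0.28 (limma, adjusted p = 0.550). In all of these settings miR-143 lay below the median, with 13.5% to 43.1% of tested miRNAs lower still, and miR-145 lay below it with 12.2% to 24.2% lower still. For part of the settings this was set in advance. Dividing each array by a factor of its own, or by none, moves all miRNAs by about the same amount. Such settings can hardly change the order of the miRNAs and do not test it. The order could change with quantile normalization, normexp, the authors' table and the ways of summarising probes. With these, too, both partners lay below the median. Of the calls, 39.3% were higher in kidney in CI-AKI and 42.0% in control as scaled here, and 61.3% and 60.9% after quantile normalization.

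**Figure D4:**
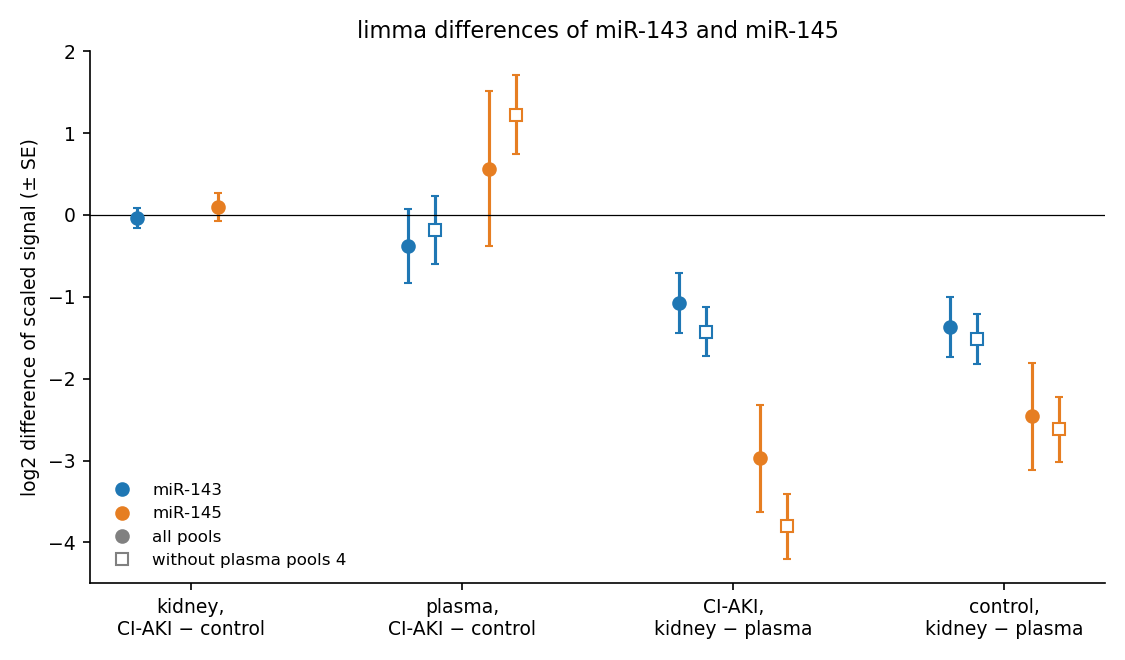
Log2 differences of miR-143 (blue) and miR-145 (orange) with SE, CI-AKI minus control in each tissue and kidney minus plasma in each treatment, from all pools (filled) and without pool 4 of both plasma groups (open). The kidney treatment differences, -0.03 and 0.10, sit near 0, the plasma ones lie on opposite sides of it, and all kidney minus plasma differences are below it.

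**Figure D5:**
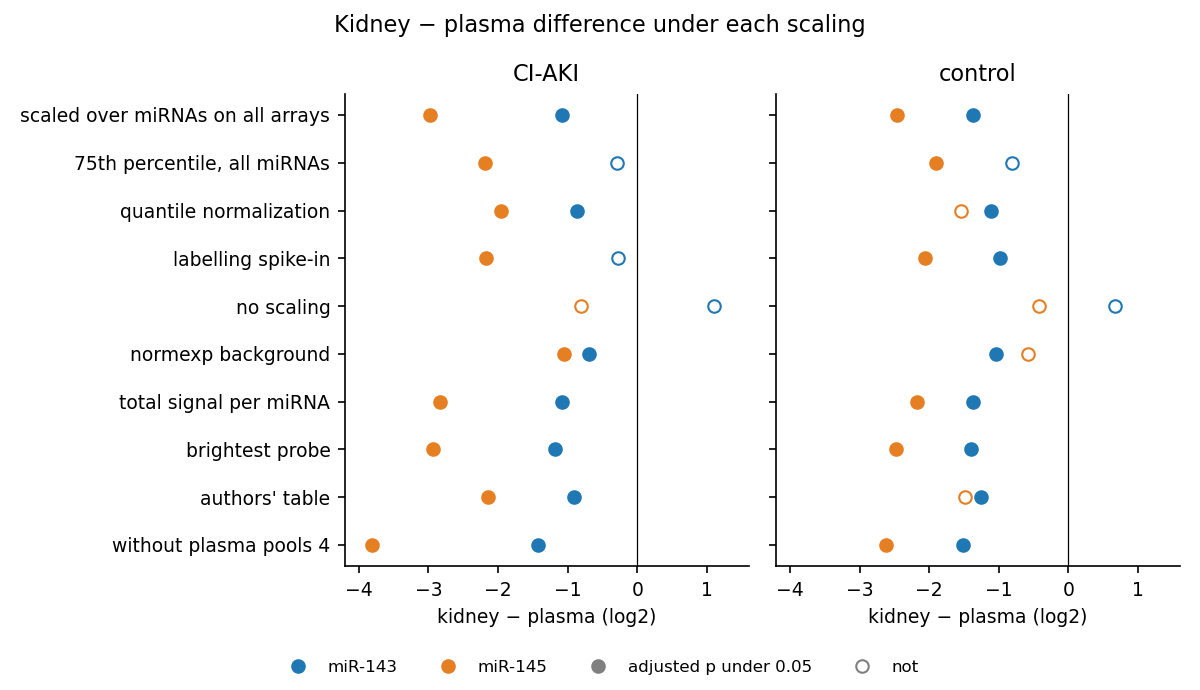
Kidney minus plasma log2 difference of miR-143 (blue) and miR-145 (orange) under 10 ways of processing, in CI-AKI (left) and control (right) rats; filled markers have a limma adjusted p under 0.05. MiR-143 crosses 0 with no scaling, at 1.10 in CI-AKI and 0.66 in control, and miR-145 stays below 0 in each.

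The ratio of the partners, which needs no scaling, was lower in kidney pools than in plasma pools, but over all pools the difference did not pass after adjustment. Its log2 value was -4.50 ± 0.30 in kidney and -2.60 ± 1.13 in plasma of CI-AKI rats, and -4.64 ± 0.15 in kidney and -3.55 ± 0.31 in plasma of control rats (SD, n = 4 pools each). Every kidney pool lay below every plasma pool, the highest kidney value being 5.62% and the lowest plasma value 6.02%, on an array without detected miR-145. A share of other pairs whose ratios did not overlap between the tissues is not given here. Kidney minus plasma, the log2 ratio differed by -1.90 in CI-AKI and by -1.09 in control, each with an exact permutation p = 0.0286, the smallest that 4 against 4 pools allow, and an adjusted p = 0.0571 over 4 comparisons. The study's 24 rats gave both tissues, so the kidneys and the plasma of a treatment stem from the same animals and are not independent. Paired by pool number, which the labels do not tie across tissues, the exact permutation p was 0.125 in each treatment (adjusted p = 0.25), the smallest that 4 pairs allow. Without the weak plasma pools 4 the differences were -2.38 and -1.10, each with an adjusted exact permutation p = 0.0571. Without CI-AKI plasma pool 4 alone the CI-AKI difference was again -2.38. Its exact permutation p stayed at 0.0286, and it passed after adjustment over the 4 comparisons of that setting (adjusted p = 0.0381). The normexp setting starts from the uncorrected spot signals, adds an offset of 50 after background correction and then quantile-normalizes. Unscaled miR-145 signals in kidney, 14.1 to 46.6, lay under this offset. With normexp the control difference turned to 0.47 (exact permutation p = 0.0286) and that in CI-AKI shrank to -0.37 (exact permutation p = 0.543). With quantile normalization alone the differences were -0.42 in control and -1.10 in CI-AKI. The order of the tissues in this ratio thus changed with the processing, and the part of each step was not tested. Among 15 pairs, the CI-AKI difference of -2.38 was second in size, after miR-200c and miR-141 at -2.40, and the control difference of -1.10 was seventh.

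Across pools the partners varied together only in part. In kidney, Pearson's r between their log2 signals was 0.53 (exact permutation p = 0.189, n = 8 pools) and Spearman's rho was 0.45 (exact permutation p = 0.267). Leaving out 1 kidney pool at a time, r ran from 0.41 to 0.73. Without the 2 pools farthest from the median of miR-143, which were CI-AKI pool 4 and control pool 1, r was -0.02. Dropping the farthest pools narrows the range of miR-143 and by itself tends to lower r. This value therefore does not show that the relation rested on those pools. In plasma r was 0.76 (exact permutation p = 0.0289, adjusted p = 0.0578 over 2 tissues, n = 8 pools) and rho was 0.64 (exact permutation p = 0.0962). It was 0.60 without the 2 farthest pools, CI-AKI pool 4 and control pool 2, and 0.48 over the 6 arrays without pool 4 (exact permutation p = 0.336). Before scaling, when the signals also carry the strength of the whole array, r was 0.94 in kidney and 0.95 in plasma. Without pool 4 this unscaled plasma value was 0.65. Within plasma groups, the correlation of deviations from the group means of scaled signals was 0.88, and 0.78 without pool 4. The SD of the kidney log2 ratio within groups, 0.23, was the largest among 19 pairs, whose other values ran from 0.04 to 0.22, and in plasma, at 0.57, the second of 15. MiR-145 was dim in kidney, and the part of spot noise in this kidney SD was not tested.

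The miRNAs most like each partner were mostly not the other one. In kidney, with 162 candidates detected on every array, miR-34a was most like miR-143 (r = 0.79), followed by miR-672, miR-203, miR-338 and miR-16 (r = 0.58), and miR-145 ranked 8th. The miRNAs most like miR-145 there were miR-125b-5p (r = 0.88), miR-672, miR-10a-3p, miR-7a and miR-374 (r = 0.74), and miR-143 ranked 27th. In plasma, miR-130a (r = 0.95), miR-497, miR-214, miR-30c and miR-27b (r = 0.78) were most like miR-143, and miR-26a (r = 0.94), miR-30a, miR-497, miR-22 and miR-130a (r = 0.87) most like miR-145. MiR-130a and miR-497 stood in both of these lists, which include the 2 arrays without detected miR-145. Without pool 4 of both groups (6 arrays) the plasma lists were others. They were miR-338 (r = 0.92), miR-130a, miR-204, miR-322* and miR-497 (r = 0.87) for miR-143, and miR-664 (r = 0.96), miR-652, miR-26a, miR-324-5p and miR-30d (r = 0.88) for miR-145, with 0 shared. The partner's own place in plasma was 6 of 73 for miR-143 and 7 of 74 for miR-145 over all pools, and 24 and 32 of 154 without pool 4. The points of each correlation are the same arrays of a tissue, which share slide and scaling, and the values are a description.

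Other miRNAs tied to smooth muscle were looked at as a list of 10, which holds growth-linked miR-21, miR-221, miR-222, miR-24, miR-26a, miR-31 and miR-146a and the muscle miRNAs miR-1, miR-133a and miR-133b. In kidney, 7 of the 10 were tested for contrast and 0 passed in either direction, with a median log2 difference of 0.03, as over all 176 miRNAs tested. MiR-31, which promotes growth of rat vascular smooth muscle cells in culture, had a difference of 0.44 (SE 0.11; limma, adjusted p = 0.115), and miR-24 one of 0.19 (SE 0.07; limma, adjusted p = 0.415). In plasma, 7 were tested and 0 passed, with a median of -0.01 beside -0.09 over all 96. MiR-133b, a muscle miRNA, had a plasma difference of 0.47 (SE 0.42; limma, adjusted p = 0.941), and miR-26a one of 0.29 (SE 0.34; limma, adjusted p = 0.941). The means of 3 of the 7 were higher and of 4 lower in CI-AKI plasma, the lower ones including miR-146a at -0.30 and miR-24 at -0.23 (limma, adjusted p = 0.941 each).

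Between tissues, 9 of the 10 were tested. In CI-AKI 7 were called lower in kidney and 0 higher, with a median of -0.92, where 45.3% of all miRNAs tested were called lower and 29.3% higher. In control 7 were called lower and 1, miR-26a, higher, with a median of -1.29, where 44.9% of all were called lower and 32.6% higher. With no scaling, 7 of the 9 were higher in kidney in each treatment, so this direction, too, turned with the scaling. A list of 5 miRNAs of mesenchymal stroma, the fibroblast and pericyte tissue that also holds contractile cells, had 0 calls for contrast among 5 tested in kidney and 4 tested in plasma. Their summed scaled signal was 1093 to 1148 in CI-AKI and 1030 to 1123 in control kidneys, and 685 to 787 in CI-AKI and 788 to 892 in control plasma. The plasma ranges of this list did not overlap, every CI-AKI pool lying below every control pool, by a margin of under 1 unit over all pools. Without pool 4, a choice made for these sums after seeing the data, they were 685 to 787 in CI-AKI and 820 to 892 in control plasma. The 4 members of this list tested in plasma did not all go the same way. MiR-199a-3p (-0.72), miR-214 (-0.30) and miR-140 (-0.19) had lower log2 means in CI-AKI and miR-140* (0.17) a higher one. Of single miRNAs in plasma, 5.21% did not overlap over all pools and 16.1% over pools 1 to 3, and no such share was computed for sums. The sums of 4 kidney tubule miRNAs did not overlap either without pool 4, at 217 to 427 in CI-AKI and 510 to 749 in control plasma. Over all pools these tubule sums overlapped. In plasma, the summed signal of 3 red blood cell miRNAs, miR-451, miR-144 and miR-16, was 2558 to 8291 in CI-AKI and 3816 to 5619 in control pools (2558 to 5403 in CI-AKI and 3816 to 5619 in control without pool 4), and that of 4 leukocyte miRNAs 1566 to 3488 in CI-AKI and 2287 to 3019 in control pools (1566 to 3428 in CI-AKI and 2287 to 2842 in control without pool 4). The ranges of these blood cell lists overlapped. The part of the stromal and blood cell lists in the values of miR-143 and miR-145 was not tested. The summed signal of the muscle miRNAs miR-1, miR-133a, miR-133b, miR-206, miR-208 and miR-499 was 286 to 503 in CI-AKI and 163 to 405 in control plasma. In pooled RNA, more cells or vesicles that carry a miRNA and more of it in each cannot be told apart.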

How the data were processed

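The data are 16 one-colour arrays, 4 RNA pools in each group. Per the labels' protocols, total RNA was purified and its miRNAs labelled with an Agilent kit. Per the file headers, spot intensity came from Agilent Feature Extraction 10.7.3.1, on a design that names build rn4. The deposited spot intensity had its background already taken off by that software. A deposited table of log2 values (median 2.28 in each column, normalization unstated) was an alternative. Here, spots that were neither controls nor flagged as outliers were averaged per probe, and probes per miRNA. Arrays were scaled by the 75th percentile of the miRNAs found on every array (163 in kidney, 74 in plasma, 65 over both), floored at 1.79, 0.976 and 1.31 and put on the log2 scale. MiRNAs detected in all 4 pools of a compared group were tested with limma 3.58.1 in R 4.3.3 (two-sided, Benjamini-Hochberg adjustment, threshold 0.05), after the script was tested on simulated data. Ratios and correlations had exact permutation tests. The members, lists and pairs, and the rule for named miRNAs (both members, the 5 most correlated with each, the pairs, and up to 4 of a list), were chosen with earlier results of these data known. Plasma pools of 1 number deviated together from their group means (r = 0.224, 0.488, 0.619 and 0.603, each CI-AKI pool most like the control pool of its own number). The main plasma tests were unpaired, and plasma numbers were taken as pairs only in an alternative. The pairing comes from the data, and same-numbered pools lie side by side on the slide. The number of pools limits the precision. Of the 56 array pairs within a tissue, 0 held identical values.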

Additional observations from a re-analysis of the deposited data

Results flagged for a closer look

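In control kidneys, pool 1 stood apart from the others for miR-143, with a scaled signal of 894 beside 673, 681 and 690. The gap to the nearest pool was 0.914 of the group's range on the log2 scale, past Dixon's 95% limit for 4 values. Chance alone sets apart about 1 in 20 groups, and 8 combinations of member and group were examined. Without this pool the miR-143 difference in kidney, CI-AKI minus control, was 0.06 on the log2 scale in place of -0.03, and neither passed the threshold in limma.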

How the results depend on the processing

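Of 442 values recomputed under alternatives for 21 results, 397 were taken as unchanged. A tested value had to keep its direction and its side of the threshold, and an untested one to move by less than the spread. For the results that are counts of calls, a count of similar size was enough, such as 2 in place of 3 in kidney. Where a value below did otherwise, the cause was not tested unless fewer pools or miRNAs entered. Treatments taken by letter from the other tissue gave 0.20 for miR-143 in kidney, -1.27 for miR-145 in plasma, ratio differences of -0.10 in kidney and -1.17 in plasma, and 0 calls in kidney.

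Between tissues, in CI-AKI and then control, no scaling gave 1.10 and 0.66 for miR-143, -0.81 and -0.42 for miR-145 and 78 and 66 calls. The 75th percentile over all miRNAs gave -0.29 and -0.81 for miR-143, neither passing. For miR-143 in CI-AKI the spike-in gave -0.28. For miR-145 in control, quantile normalization gave -1.54, normexp -0.57 and the authors' table -1.48, none passing. Requiring detection on every array left miR-145 untested, at -2.97 and -2.46, with 72 and 55 calls. The ratio in control turned to 0.47 with normexp.

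In kidney, 1 miRNA was called for contrast with quantile normalization, no scaling, normexp or all 4 groups in 1 fit, and 0 with detection on every array. For the difference of the contrast effect, calls were 0 with no scaling, normexp or detection on every array, and 2 without pool 4 of both plasma groups. The correlation of the partners was 0.66 in kidney and 0.73 in plasma in the authors' table, 0.94 and 0.95 with no scaling, and 0.84 in kidney with the spike-in, each with an adjusted exact permutation p under the threshold.

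Leaving out 1 pool, miR-143 in kidney ran from -0.131 to 0.0632, miR-145 there from 0.00116 to 0.240, miR-143 in plasma from -0.70 to -0.03 and miR-145 in plasma from 0.08 to 1.39, with no call made. The tissue difference of miR-143 in CI-AKI ran from -1.42 to -0.72, its call lost only without plasma CI-AKI pool 2 (adjusted p = 0.0539), and its contrast effect, kidney minus plasma, from -0.0541 to 0.653, with 1 to 4 miRNAs called there. The ratio difference ran from 0.51 to 1.43 in plasma and from -2.38 to -1.46 between tissues in CI-AKI, and the plasma correlation from 0.55 to 0.90. Both ratio differences passed only without plasma CI-AKI pool 4 (adjusted exact permutation p = 0.0381 each). The plasma correlation passed only without plasma CI-AKI pool 1 (adjusted exact permutation p = 0.0167).

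With the replicate number as a block, no call on miR-143 or miR-145 changed, in plasma, where numbers pair, or elsewhere: adjusted p was 0.945 for miR-143 and 0.915 for miR-145 in kidney and 0.725 for miR-143 in plasma, with 3 and 0 calls. As paired differences, the ratio gave an exact permutation p = 0.375 in kidney and 0.25 in plasma, and 0.125 between tissues in each treatment. Kidney numbers did not pair, with deviations correlating at 0.204, 0.588, -0.0999 and 0.147. MiR-145 lies near the detection limit on the weak plasma arrays, which limits what they show. In kidney, too, its dimmer probe was weak on pool 3 of both groups.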
